A study of Homo sapiens with 4 samples.

Results

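The miR-23/27/24 miRNAs were examined here: 10 mature miRNAs, chosen by name, of 2656 in the count table. They come from a pair of paralogous clusters, miR-23a, miR-27a and miR-24-2 on chromosome 19 and miR-23b, miR-27b and miR-24-1 on chromosome 9. Small RNA was sequenced from HEK293T cells, a human embryonic kidney line carrying the SV40 large T antigen, in 4 libraries. All libraries came from cells with a landing pad, an engineered genomic site that accepts a transgene. In 2 libraries (PGK replicates 1 and 2) the genotype was PGK landing pad, with the promoter of the phosphoglycerate kinase gene, and in 2 (CAG replicates 1 and 2) it was CAG landing pad, with a strong synthetic promoter that joins viral enhancer and beta-actin elements. The lines were monoclonal, so promoter and clone cannot be told apart, and nothing in the labels says that the replicates were grown separately. Each p-value thus reflects only the spread among these 4 libraries, which may be technical.

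A miRNA is cut from a hairpin in a longer transcript, and its 5p and 3p arms are the strands of the hairpin's stem. One arm is usually loaded into Argonaute and guides it to messenger RNAs through the seed, bases 2 to 8 from the 5′ end. In both clusters the 3p arms are the known guides. The clusters are best known from endothelium, blood and muscle: miR-23 and miR-27 act in vessel growth, miR-27 restrains fat cell formation, and miR-24 restrains cell-cycle genes. Their hairpins are transcribed together, but each locus has its own host transcript.

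The 3p guide arms are shown because their likeness decides what the counts can tell apart. The sequences are RefSeq's (GRCh38.p14), 5′ to 3′, with the seed in capitals, and all 10 members had an entry.
hsa-miR-23a-3p: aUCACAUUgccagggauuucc
hsa-miR-23b-3p: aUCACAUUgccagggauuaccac
hsa-miR-27a-3p: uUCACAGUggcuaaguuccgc
hsa-miR-27b-3p: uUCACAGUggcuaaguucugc
hsa-miR-24-3p: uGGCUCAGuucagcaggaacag
The paralogous guides share their seeds. Counted from the 5′ end, miR-23a-3p and miR-23b-3p differ by U19A and by 2 further bases at the end of miR-23b-3p, and miR-27a-3p and miR-27b-3p differ by C19U alone. Both miR-24 hairpins give the same miR-24-3p, so its reads belong to both loci.

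The 5p arms are shown because they can be told apart more easily.
hsa-miR-23a-5p: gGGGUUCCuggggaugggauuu
hsa-miR-23b-5p: uGGGUUCCuggcaugcugauuu
hsa-miR-27a-5p: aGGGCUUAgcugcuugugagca
hsa-miR-27b-5p: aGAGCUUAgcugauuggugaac
hsa-miR-24-2-5p: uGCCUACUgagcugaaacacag
hsa-miR-24-1-5p: uGCCUACUgagcugauaucagu
Read from the 5′ end, miR-23a-5p and miR-23b-5p differ at 7 of 22 positions, and miR-27a-5p and miR-27b-5p at 8 of 22. miR-24-2-5p (chromosome 19) and miR-24-1-5p (chromosome 9) differ at 6 of 22, all past position 15. miR-24-1-5p is not among the 10 but is used as the chromosome 9 counterpart of miR-24-2-5p. The 5p seeds of miR-23a and miR-23b are the same, as are those of the miR-24 copies, while the 5p seeds of miR-27a and miR-27b differ.

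GENCODE release 29 (GRCh38) places MIR23A at chr19:13836587-13836659, MIR27A at chr19:13836440-13836517 and MIR24-2 at chr19:13836287-13836359, all on the minus strand. The 3 hairpins span 373 bases and lie in an exon of AC020916.1, a non-coding gene on the same strand. MIR23B lies at chr9:95085208-95085304, MIR27B at chr9:95085445-95085541 and MIR24-1 at chr9:95086021-95086088, on the plus strand over 881 bases. MIR23B and MIR27B are in introns of C9orf3 (AOPEP in RefSeq), a protein-coding aminopeptidase gene, and MIR24-1 overlaps an exon of a C9orf3 transcript annotated as subject to nonsense-mediated decay. MIR3074 lies opposite MIR24-1, at chr9:95086014-95086094 on the minus strand. The count tables hold no coordinates, so positions were looked up by hairpin name.

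**Figure D1:**
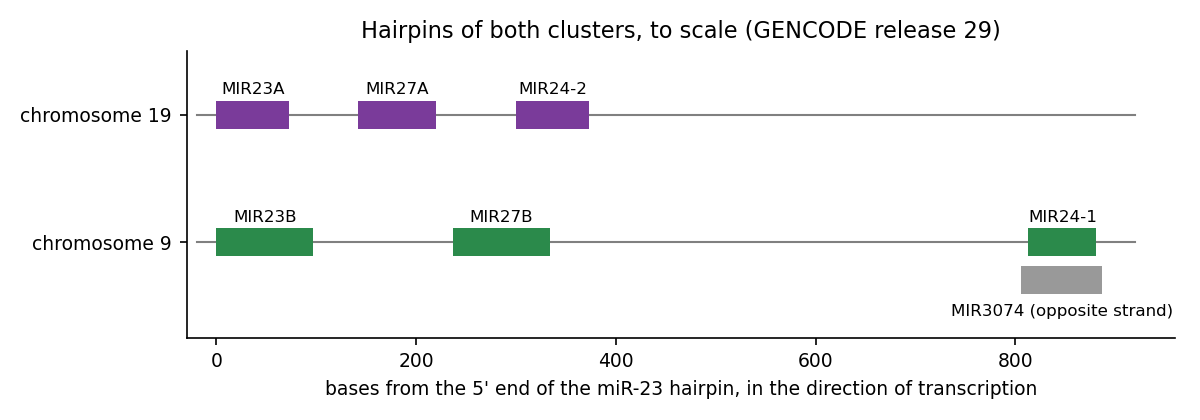
Hairpins of the chromosome 19 (top) and chromosome 9 (bottom) clusters, drawn to scale; the x axis is the distance in bases from the 5′ end of the miR-23 hairpin in the direction of transcription. Both clusters keep the order miR-23, miR-27, miR-24, over 373 bases on chromosome 19 and 881 on chromosome 9, and MIR3074 lies on the strand opposite MIR24-1.

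Libraries held 2845945 to 13780279 counts, with CAG replicate 2 the shallowest, and the members took 1.595% to 2.31% of them. Levels are given as CPM, that is, counts divided by the TMM-adjusted library total and brought to a common scale. A mature miRNA is read whole, so no length correction applies, but ligation and PCR efficiency depend on sequence, so a comparison across libraries is firmer than one across miRNAs. A single read was worth 0.0777 to 0.324 CPM. Markers of blood, endothelium, muscle, mesenchyme, liver and neurons were checked in every library. The 6 blood markers summed to 0.932 to 2.27 CPM per library, with miR-223-3p at 0 reads in all 4, and none reached the level needed for testing. The endothelial marker miR-126-3p was at 1083 to 1733 CPM and was not called (edgeR adjusted p = 0.0793), and miR-126-5p was called lower in CAG (log2 fold change −0.89, SE 0.23; edgeR adjusted p = 0.0291). The 4 muscle markers summed to 106 and 96.1 CPM in PGK and 16.8 and 15.6 CPM in CAG libraries, with miR-208a-3p at 0 reads in all 4. Most of this was miR-1-3p, which fell by 2.61 on the log2 scale (SE 0.22; edgeR adjusted p = 9.33e-06), and miR-133a-3p, with 20 and 14 reads in PGK and 4 and 0 in CAG libraries, was also called lower (edgeR adjusted p = 0.0171). The 4 mesenchyme markers summed to 24.7 and 30.5 CPM in PGK and 46.1 and 59.3 CPM in CAG libraries. Of these, miR-143-3p was called higher in CAG (edgeR adjusted p = 0.0214) and miR-199a-3p was not called (edgeR adjusted p = 0.0659). The liver marker miR-122-5p was not called (edgeR adjusted p = 0.756), and the neuron marker miR-124-3p, with 0 to 3 reads per library, was not tested. The part of these marker differences in the results on the clusters was not tested. No defining miRNA set for HEK293T was available to check the label.

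Levels of the members ran from 0.324 to 18035 CPM, and hsa-miR-27b-3p led them. Its levels were 13089 and 15301 CPM in the PGK and 14000 and 18035 CPM in the CAG libraries, replicate 1 first. It ranked 15 among all 2656 miRNAs and held 79.2% to 84.8% of the members' reads in each library. The groups overlapped for it, and CAG replicate 2 was the highest library. miR-24-3p came next, at 1331 and 1329 CPM in the PGK libraries and 1281 and 1401 CPM in the CAG libraries, again with overlapping groups. Its lowest library lay above the highest library of miR-23b-3p and far below the lowest of miR-27b-3p.

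The next 3 guides formed a run in which neighbours could not be ordered by their ranges. miR-23b-3p stood at 828 and 586 CPM in PGK and 964 and 845 CPM in CAG libraries. miR-27a-3p stood at 600 and 684 CPM in PGK and 448 and 578 CPM in CAG libraries. miR-23a-3p stood at 527 and 362 CPM in PGK and 248 and 290 CPM in CAG libraries. For these 3 the groups did not overlap, as for 57.2% of all tested miRNAs. CAG was above PGK for miR-23b-3p and below it for miR-27a-3p and miR-23a-3p.

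The passenger arms were far lower. miR-27a-5p had 72.3 and 61.1 CPM in PGK and 44.9 and 42.8 CPM in CAG libraries, and miR-27b-5p had 50.8 and 49.4 CPM in PGK and 58.9 and 57.7 CPM in CAG libraries. These arms had overlapping ranges over the 4 libraries but opposite orders of the groups. miR-24-2-5p ranged from 8.43 to 17.0 CPM and miR-23b-5p from 6.13 to 10.7 CPM, and these ranges also overlapped. miR-23a-5p was rarest, with 14 and 7 reads in PGK and 9 and 1 reads in CAG libraries.

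**Figure D2:**
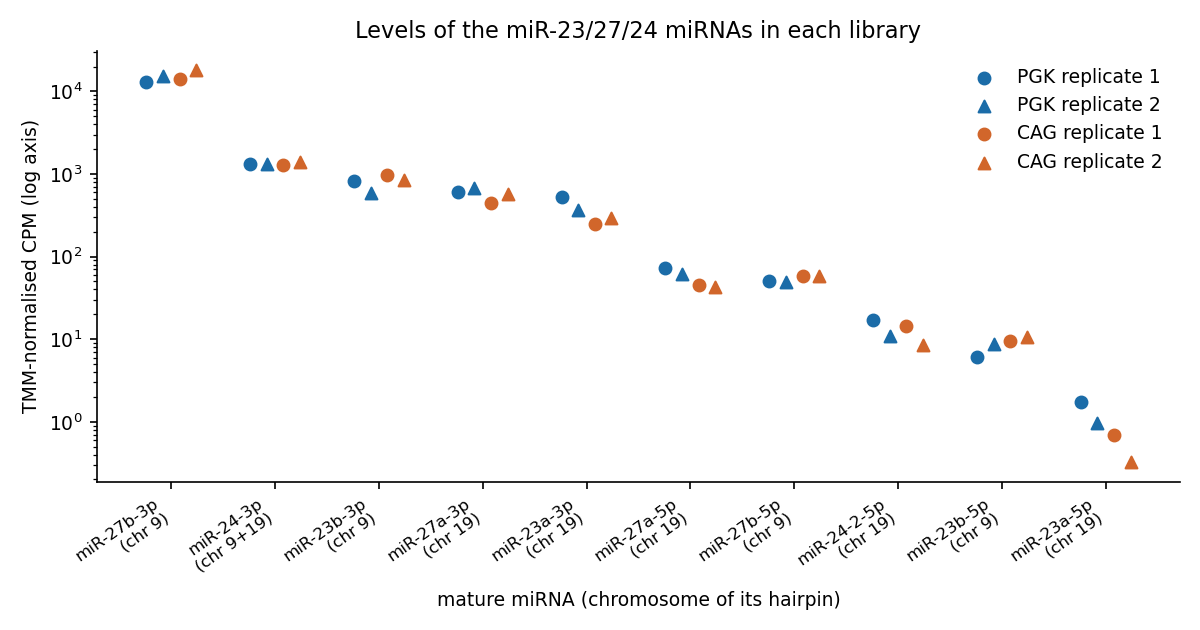
TMM-normalised CPM (log axis) of the 10 miRNAs in order of their mean, with the chromosome of the hairpin below each name; blue marks the 2 PGK and orange the 2 CAG libraries, circles replicate 1 and triangles replicate 2. miR-27b-3p stands at 13089 to 18035 CPM. The chromosome 19 products miR-23a-3p, miR-27a-3p, miR-27a-5p and miR-23a-5p have both orange points below both blue points. miR-23b-3p, miR-23b-5p and miR-27b-5p have the reverse. Such separation was common: groups did not overlap for 57.2% of all tested miRNAs.

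Whether these miRNAs differed between CAG and PGK cells was tested with edgeR's quasi-likelihood test over all 773 miRNAs that passed a filter on low counts. Adjusted p is the Benjamini-Hochberg value over those 773. Of the members, 9 passed the filter, and miR-23a-5p did not. By this test 14.2% of all tested miRNAs were called at an adjusted p under 0.05. By direction, 8.15% of the tested miRNAs were higher and 6.08% lower in CAG. Among the 9 tested members 1 was called, as lower, a share near the background. Groups did not overlap for 6 of the 9 tested members (3 lower and 3 higher in CAG), against 57.2% of all tested miRNAs. The median log2 fold change was 0.011 over the 9 and −0.0042 over all tested miRNAs.

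The called member was the chromosome 19 guide miR-23a-3p. It fell from 444 ± 116 CPM in PGK to 269 ± 29.6 CPM in CAG cells (mean ± SD, n = 2 libraries, as throughout). The log2 fold change was −0.73 (SE 0.22; edgeR adjusted p = 0.0498). This call lay at the threshold and was lost in 9 of 14 alternative analyses. Without PGK replicate 1 the log2 fold change was −0.45 (edgeR adjusted p = 0.345), without PGK replicate 2 it was −0.98 (edgeR adjusted p = 0.153), and with no filter the edgeR adjusted p was 0.0707. All 14 alternatives gave a lower level in CAG, but the groups did not overlap, so leaving out a library could hardly turn the sign.

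The other chromosome 19 products were not called. miR-27a-5p averaged 66.7 ± 7.96 CPM over the 2 PGK libraries and 43.8 ± 1.49 CPM over the 2 CAG libraries. Its log2 fold change was −0.60 (SE 0.21; edgeR adjusted p = 0.0792). miR-27a-3p had a log2 fold change of −0.33 (SE 0.19; edgeR adjusted p = 0.299). miR-24-2-5p had −0.17 (SE 0.33), and its sign turned when PGK replicate 1 or CAG replicate 2 was left out (0.16 and 0.060).

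No chromosome 9 product was called either. The log2 fold change was 0.36 for miR-23b-3p (SE 0.20), 0.42 for miR-23b-5p (SE 0.30), 0.22 for miR-27b-5p (SE 0.20) and 0.17 for miR-27b-3p (SE 0.17), with edgeR adjusted p from 0.286 to 0.552. miR-24-1-5p, with 28 and 28 reads in PGK and 79 and 16 in CAG libraries, had a log2 fold change of 0.66 (SE 0.33; edgeR adjusted p = 0.222). miR-24-3p, the product of both loci, averaged 1330 ± 1.26 CPM over the 2 PGK libraries and 1341 ± 85.5 CPM over the 2 CAG libraries. Its log2 fold change was 0.011 (SE 0.17). The estimates for all 4 tested chromosome 19 products were thus below 0 and those for all 5 chromosome 9 products above it, but single miRNAs, with the exception of miR-23a-3p, did not differ beyond the spread between libraries by this test.

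**Figure D3:**
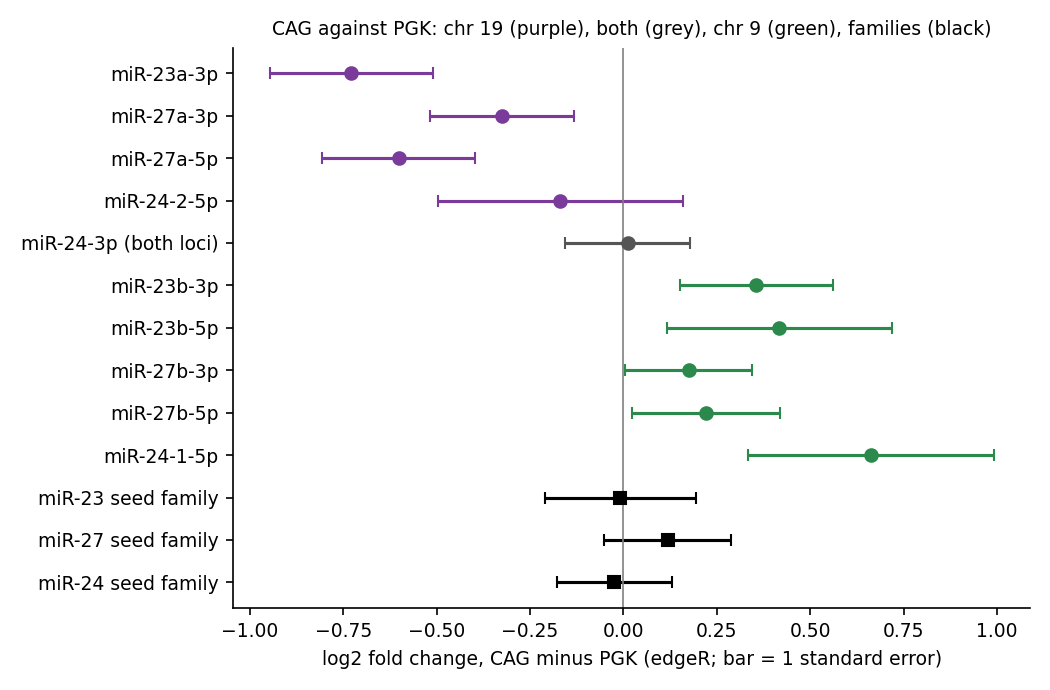
Log2 fold change, CAG minus PGK (x axis; edgeR estimate with 1 standard error either side), for the tested chromosome 19 products (purple), miR-24-3p (grey), the chromosome 9 products (green) and the seed families (black squares). The purple points run from −0.73 to −0.17, the green points from 0.17 to 0.66, and the family points lie between −0.025 and 0.12.

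Both loci were then compared within each library, where no scaling between libraries enters. For each product with distinguishable copies, the share of reads from the chromosome 19 copy was taken, with an exact (Clopper-Pearson) 95% interval that covers counting error only. For miR-23-3p the share was 38.9% (38.0% to 39.8%) and 38.2% (37.0% to 39.4%) in PGK replicates 1 and 2, and 20.5% (19.8% to 21.1%) and 25.5% (24.1% to 27.02%) in CAG replicates 1 and 2. The PGK libraries lay close together and well above both CAG libraries, which differed from each other beyond counting error. For miR-27-5p the share was 58.7% and 55.3% in PGK and 43.2% and 42.6% in CAG libraries. The chromosome 19 copy was therefore the majority of miR-27-5p reads in PGK and the minority in CAG libraries.

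For miR-27-3p the chromosome 19 share was small, at 4.38% and 4.28% in PGK and 3.10% and 3.11% in CAG libraries. These shares rest on 57428 to 186046 reads per library, and the gap between groups was many times that between replicates. For miR-24-5p the share was 82.9% and 73.6% in PGK and 70.4% and 61.9% in CAG libraries, with wide intervals in CAG replicate 2 (45.6% to 76.4%, 42 reads). For miR-23-5p it was 22.2% and 10.1% in PGK and 6.92% and 2.94% in CAG libraries, the last from a single miR-23a-5p read of 34. In all 5 products both CAG libraries had a lower chromosome 19 share than both PGK libraries. Separation of the groups was common in such ratios: among 47 pairs of entries named a and b, the groups did not overlap in 61.7%, and CAG was the lower in 31.9%. The 47 pairs include miR-23-3p, miR-27-5p and miR-27-3p, but not miR-24-5p or miR-23-5p. The products of a locus come from shared transcripts and are not independent readings, and for 1 product an exact two-sided permutation test of 2 against 2 libraries cannot go below p = 0.333, the value all 5 gave.

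**Figure D4:**
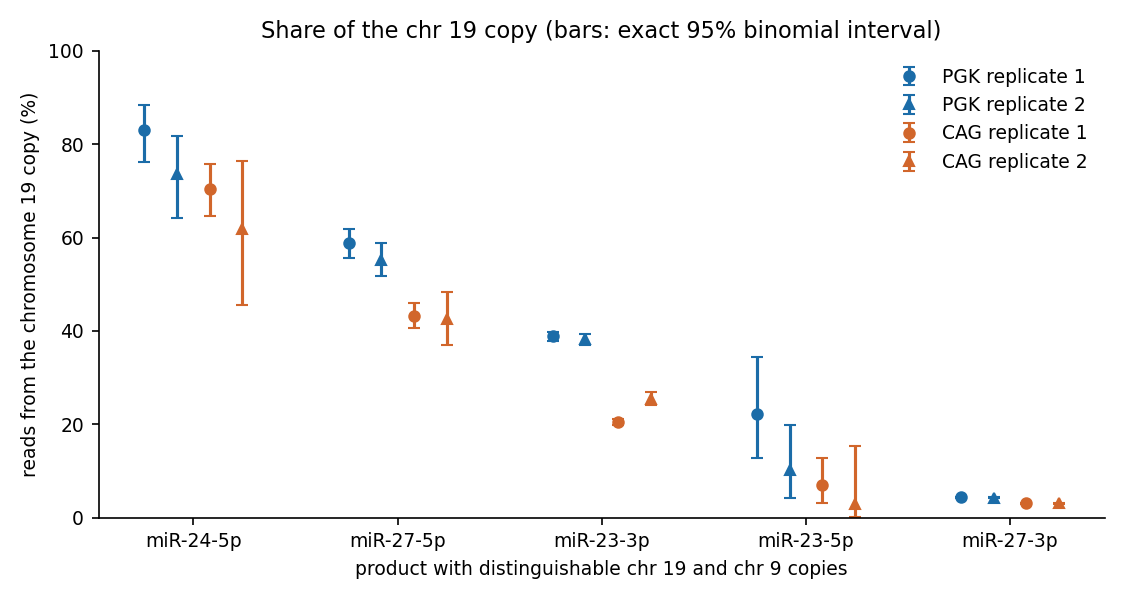
Share of reads from the chromosome 19 copy (y axis, %) for each product in each library, with exact 95% binomial intervals; blue marks PGK and orange CAG libraries, circles replicate 1 and triangles replicate 2. In these 5 products both orange points lie below both blue points, as with 20.5% and 25.5% against 38.9% and 38.2% for miR-23-3p. Of 47 pairs of a and b entries, 31.9% separate in this direction. The 47 include miR-23-3p, miR-27-5p and miR-27-3p, but not miR-24-5p or miR-23-5p.

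A fit over all such pairs allows a test. The log2 ratio of the a to the b entry was fitted with limma over 47 pairs of entries whose names differ only by these letters and whose mean counts were at least 10. By this test 4.26% of the 47 pairs were called (2 pairs), 1 of them from these clusters. The share called lower in CAG was 2.13%, which is that 1 pair. The ratio of miR-27a-3p to miR-27b-3p fell, with a change in log2 ratio of −0.50 (SE 0.032; limma adjusted p = 0.0179). The ratio of miR-23a-3p to miR-23b-3p had a change of −1.08 (SE 0.17) and that of miR-27a-5p to miR-27b-5p a change of −0.82 (SE 0.13), and neither was called (limma adjusted p = 0.0862 for both). The 47 pairs include 2 of identical sequence (miR-199-3p and miR-365-3p), whose ratios follow from how shared reads were divided, as described next. Without them, an alternative chosen after seeing the data, 8.89% of 45 pairs were called (4 pairs), and miR-23a-3p to miR-23b-3p was among them (limma adjusted p = 0.0276), while miR-27a-5p to miR-27b-5p was not (limma adjusted p = 0.0741). The miR-27-3p call was lost in 6 of 10 alternatives. Its size ran from −0.52 to −0.48, but changing the variance trend, the replicate block, the filter or the pairs tested leaves the estimate as it is. The steady size is therefore no further support. The limma adjusted p was 0.169 and 0.233 without PGK replicates 1 and 2, 0.0614 and 0.0848 without CAG replicates 1 and 2, 0.102 without a variance trend and 0.0609 with the replicate block.

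How reads that fit several entries were counted bears on these ratios. miR-365a-3p and miR-365b-3p have the same sequence and 1 hairpin each, and their read counts had a ratio of 0.998 to 1.00 in every library. miR-199a-3p, with 2 hairpins, had 2 to 2.02 times the reads of miR-199b-3p, an identical sequence with 1 hairpin. Shared reads were thus divided by hairpin in these entries. A read of miR-27 or miR-23 that ends before position 19 fits both paralogs. The counts do not show how many such reads there were, so their part in the 3p shares was not tested. The same holds for the arm shares and the ratios of 3p reads given below.

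Sums over a seed do not depend on that division. In the table of seed families, UCACAUU held miR-23a-3p, miR-23b-3p and 2 to 10 reads of miR-23c, UCACAGU held miR-27a-3p, miR-27b-3p and 9 to 29 reads of miR-9985 (named after its values were seen), and GGCUCAG held miR-24-3p alone. The summed reads matched the family counts within 1 read in every library. The test called 10.4% of 642 families, and none of these 3. The miR-23 family was at 1372 and 962 CPM in PGK and 1210 and 1109 CPM in CAG libraries, and the groups overlapped. Its log2 fold change was −0.0085 (SE 0.20), against 0.12 (SE 0.17) for miR-27 and −0.025 (SE 0.15) for miR-24, with edgeR adjusted p from 0.72 to 0.983. DESeq2 and limma-voom called none of the 3 either, and no alternative did.

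The arms of each hairpin were compared next. In every hairpin the 3p arm held most reads, but by very different margins. The 5p share was 0.319% to 0.419% for miR-27b, 0.112% to 0.332% for miR-23a, 0.735% to 1.45% for miR-23b and 0.962% to 1.59% for miR-24 with both 5p entries added. For miR-27a it was 10.8% and 8.20% in PGK and 9.11% and 6.89% in CAG libraries, so miR-27a stood apart from the other hairpins in all 4 libraries. Among 173 hairpins with enough reads in both arms, 3 had a lower mean log2 ratio of 5p to 3p than miR-27b (−8.11), 10 had a lower one than miR-23b (−6.52) and 31 a lower one than miR-27a (−3.40). The median hairpin had 0.93.

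**Figure D5:**
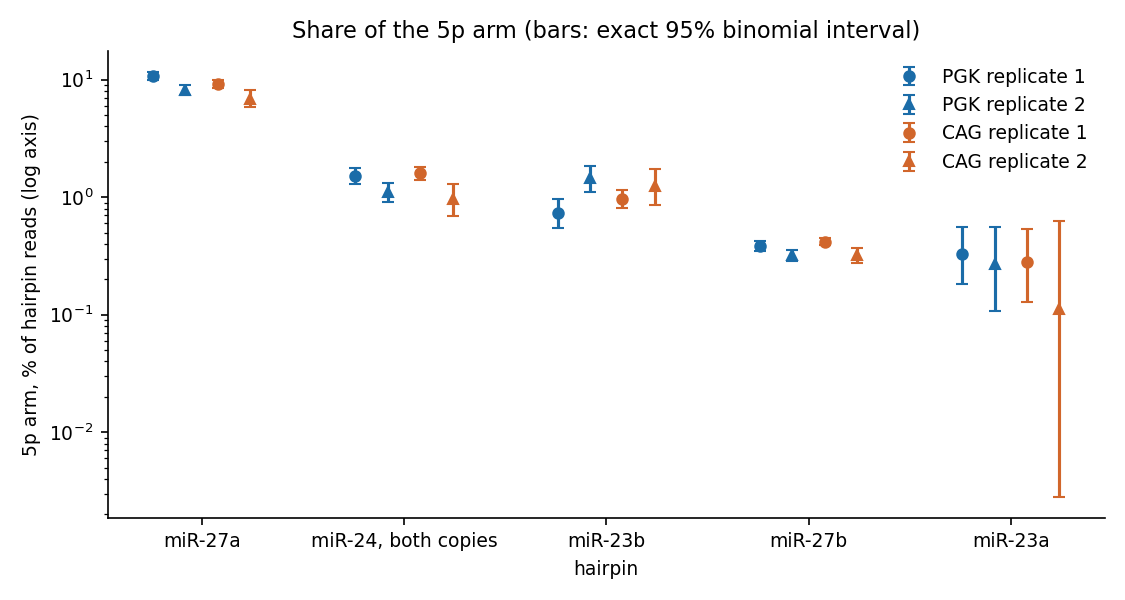
Share of the 5p arm among reads of each hairpin (y axis, %, log axis) in each library, with exact 95% binomial intervals; blue marks PGK and orange CAG libraries, circles replicate 1 and triangles replicate 2. miR-27a lies at 6.89% to 10.8%, above all the others, and the blue and orange ranges overlap in every hairpin.

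The contrast between the miR-27 paralogs was the widest. miR-27b-3p had 21.8 and 22.4 times the reads of miR-27a-3p in PGK and 31.2 times in both CAG libraries, whereas miR-27b-5p had only 0.702 and 0.808 times the reads of miR-27a-5p in PGK and 1.31 and 1.35 times in CAG libraries. The log2 ratio of 5p to 3p was higher in miR-27a than in miR-27b by 4.96 and 4.79 in PGK and 4.57 and 4.53 in CAG libraries. The mean of these differences was 4.71 ± 0.198 (SD, n = 4 libraries). This SD pools PGK and CAG libraries, so it holds any gap between the groups as well as the spread within them. miR-27a had the higher ratio in 4 of 4 libraries, too few for an exact paired permutation test to pass 0.05.

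Arm ratios did not differ detectably between CAG and PGK cells. A limma fit over the 173 hairpins called 0% of them (0 calls, with 8 at an unadjusted p under 0.05). The change in log2 ratio of 5p to 3p was 0.089 (SE 0.43) for miR-23b, −0.27 (SE 0.33) for miR-27a and 0.053 (SE 0.26) for miR-27b, each with a limma adjusted p of 0.973. The standard errors are wide enough that changes of the size seen for the loci could be missed. miR-23a had too few 5p reads for this test and miR-24 has no single 5p entry.

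Within a locus, the guides did not keep a fixed proportion between libraries. miR-27b-3p had 15.8 and 26.1 times the reads of miR-23b-3p in PGK replicates 1 and 2, and 14.5 and 21.4 times in CAG replicates 1 and 2. On chromosome 19, miR-27a-3p had 1.14 and 1.89 times the reads of miR-23a-3p in PGK and 1.81 and 1.996 times in CAG libraries. Both ratios were lower in replicate 1 than in replicate 2, in PGK and in CAG libraries. miR-23a-3p and miR-23b-3p were both higher in PGK replicate 1 than in PGK replicate 2. The single-miRNA comparisons of miR-23 carry this PGK spread, while the share between paralogs does not. In the CAG libraries miR-23b-3p was higher and miR-23a-3p lower in replicate 1.

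Of the 4 mature miRNAs of the chromosome 19 neighbours, 2 were tested and both were higher in CAG. MIR181C (chr19:13874699-13874808), 38039 bases from MIR23A, and MIR181D (chr19:13874875-13875011) lie on the opposite strand, in an intron of NANOS3. Over both loci 7 neighbouring mature miRNAs were listed, of which 5 were tested and 2 rose, against 8.15% of all tested miRNAs. The 2 that rose come from adjacent hairpins on the same strand, so they may not be independent readings. miR-181d-5p rose from 86.4 ± 0.386 to 217 ± 21.4 CPM (n = 2), by 1.33 on the log2 scale (SE 0.19; edgeR adjusted p = 0.000884). miR-181c-3p rose by 1.27 (SE 0.22; edgeR adjusted p = 0.00308). miR-181c-5p (1 to 15 reads per library) and miR-181d-3p (0 to 5 reads) were too low to test. The calls of miR-181d-5p and miR-181c-3p were lost without PGK replicate 1 and without PGK replicate 2 (edgeR adjusted p from 0.0726 to 0.116), with log2 fold changes of 1.16 to 1.36. The chromosome 19 cluster miRNAs thus had estimates below 0 beside 2 neighbours that were higher, and the difference between them was not tested. On the chromosome 9 side, miR-2278, in an intron of C9orf3 upstream of the cluster, had a log2 fold change of −0.060 (SE 0.35).

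Reads were also assigned to the strand opposite MIR24-1. miR-3074-5p (gUUCCUGCugaacugagccag) is complementary to miR-24-3p over 20 bases. It had 112 and 143 CPM in PGK and 126 and 163 CPM in CAG libraries, with overlapping groups and a log2 fold change of 0.17 (SE 0.21; edgeR adjusted p = 0.647). It had 20.5 to 36.6 times the reads of miR-24-1-5p, the passenger arm on the plus strand, and miR-24-3p had 8.60 to 11.8 times the reads of miR-3074-5p.

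The seed relative miR-128-3p (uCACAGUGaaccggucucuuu), whose seed is that of miR-27 moved by 1 base, was about as abundant as miR-27b-3p. It had 12620 and 17788 CPM in PGK and 14968 and 13940 CPM in CAG libraries, and a log2 fold change of −0.073 (SE 0.18). In a list of 12 miRNAs known from blood vessels, 10 were tested, with 1 higher, 2 lower and 7 not called, against 8.15% higher and 6.08% lower among all tested miRNAs. The median log2 fold change of the 10 was −0.34, beside −0.0042 over all tested miRNAs. The 10 include both arms of miR-126, so they are not all independent readings. The lower ones were miR-221-3p, by −0.74 (SE 0.15; edgeR adjusted p = 0.0093), and miR-126-5p, by −0.89 (SE 0.23; edgeR adjusted p = 0.0291), and miR-143-3p was higher, by 1.32 (SE 0.32; edgeR adjusted p = 0.0214). Its 2 untested members, miR-130a-3p and miR-145-5p, had at most 3 reads per library.

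The patterns most alike were sought among 217 other tested miRNAs averaging 100 CPM or more, by the root mean square difference of centred log2 CPM over the 4 libraries. With so few libraries this is a description only. The closest was miR-30b-5p for miR-23a-3p (0.0847), miR-331-3p for miR-23b-3p (0.0843), miR-7976 for miR-27a-3p (0.0485), miR-1271-5p for miR-27b-3p (0.0353) and miR-15b-5p for miR-24-3p (0.0147). miR-30b-5p was called lower in CAG, with a log2 fold change of −0.80 (edgeR adjusted p = 0.0197). It was chosen for likeness to miR-23a-3p in these same libraries, so a similar fold change follows from the choice.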

How the data were processed

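Trizol-extracted total RNA went into NEBNext Small RNA libraries, per the labels' protocols, and no molecular identifiers are described. The authors deposited whole-number read counts per mature miRNA and per seed family, 1 column per library; for the aligner, counting rule, annotation and build, nothing is given in the sources used here, and the division of shared reads means that counts may be rounded. Groups and replicate numbers came from sample titles. Replicates were compared before averaging (chi-square per degree of freedom 41.7 for PGK and 79.4 for CAG), so neither pair agrees within sampling noise. The main test was edgeR 4.0.16 in R 4.3.3 (quasi-likelihood, robust, TMM, filterByExpr with minimum count 10 and total 15, group alone; common biological coefficient of variation 0.18), fitted over each whole table and tested on simulated data. Standard errors are the fold change over the root of F. Ratios within a library used limma 3.58.1 on log2 of counts plus 0.5, with a mean of at least 10 counts in both parts. DESeq2 1.42.0 was an alternative. Python 3.11.15 with scipy 1.17.1 gave intervals and permutation tests. The members, the lists of neighbours, seed relatives, vascular miRNAs and markers, and the tests were chosen with earlier results of these data known. By the naming rule, the text names all members, miR-24-1-5p, up to 4 of each list with values and the miRNA with the pattern most alike for each guide. The called and the untested vascular miRNAs, the entries of identical sequence (miR-365-3p and miR-199-3p) and miR-9985 were named after their values were seen. Replicate numbers were not taken to pair the libraries.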

Additional observations from a re-analysis of the deposited data

How the results depend on the processing

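Leaving out each replicate gave 16 to 162 called miRNAs (110 with all), 0 to 1 called members (1), 14 to 60 families (67), 0 to 7 arm ratios (0) and 0 to 1 paralog ratios (2); the lone library is then assumed to vary like the other group. The number of called miRNAs was 19 without PGK replicate 1 and 16 without PGK replicate 2, against 106 without CAG replicate 1 and 162 without CAG replicate 2. With the replicate block, 63 miRNAs, 0 members, 21 families, 0 arm ratios and 1 paralog ratio were called. Deviations of same-numbered libraries had r = 0.0403 across 436 miRNAs. With 2 libraries per group, and all these miRNAs pooled, this value cannot decide whether the numbers pair the libraries. The 1 called member, miR-23a-3p, was not called (0 members) with upper-quartile scaling, library size alone, no filter, a filter of 10 CPM in 2 libraries, the older quasi-likelihood method or the 5 most abundant removed; RLE scaling, DESeq2 and limma-voom kept the count at 1. Pseudocount 2 gave 2 called arm ratios and a mean of at least 1 count gave 1. The called paralog ratios were 1 with a mean of at least 1 count, 0 without a variance trend, and 4 without the identical-sequence pairs (chosen after seeing the data). The cause of these shifts was not tested.

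Signs were followed for the members, miR-24-1-5p, some neighbours, the seed families and the member ratios, not for all called miRNAs. Among these, signs turned for the uncalled results given next and for no called one. The called ones had groups that did not overlap, so leaving out a library could hardly turn their signs. miR-24-3p was at −0.010 with RLE scaling and −0.010 with DESeq2, and −0.050 to 0.082 with a replicate left out. The miR-23 family was at 0.042 with library size alone, 0.041 with the stricter filter, 0.016 with limma-voom and 0.012 with the replicate block, and −0.27 to 0.24 with a replicate left out. The miR-24 family was at 0.039 with library size alone and 0.030 with the stricter filter, and −0.090 to 0.013 with a replicate left out. With a replicate left out, the ranges were −0.074 to 0.26 for the miR-27 family, −0.014 to 0.35 for miR-27b-3p, −0.73 to 0.16 for miR-24-2-5p, −0.014 to 0.36 for miR-3074-5p, −0.41 to 0.58 for the arm ratio of miR-23b and −0.14 to 0.25 for that of miR-27b. The change in the paralog ratio of miR-23-3p ran from −1.29 to −0.87 over 10 alternatives. Its groups did not overlap, so leaving out a library could not turn its sign. It was called in 2 of the alternatives, without CAG replicate 2 and without the identical-sequence pairs. The change for miR-27-5p ran from −0.92 to −0.72 and was called in none. Depth limits miR-23a-5p most: in CAG replicate 2 a count of 0 would allow up to 0.972 CPM (3 counts).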
